A study of Mus musculus with 6 samples.

Results

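Gata6, Rarb and Adgre1 are genes of the resident macrophage of the mouse peritoneal cavity. They were taken by gene symbol from a table of transcripts, which lists 13 transcripts of these 3 genes among 33539 transcripts of 16358 genes. GATA6 is a zinc-finger transcription factor that, in mice, sets the identity of the large resident peritoneal macrophage. It is induced there by retinoic acid, the vitamin A product that acts through nuclear receptors of the RAR family. RAR-beta, encoded by Rarb, is such a receptor, and its own gene is a classical target of retinoic acid. F4/80, encoded by Adgre1, is an adhesion G protein-coupled receptor with EGF-like repeats outside the cell and is the standard surface antigen of mouse macrophages, abundant on the large resident cells.

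RNA was sequenced from peritoneal macrophages of 3 wild-type (WT) mice and of 3 littermates with a myeloid deletion of Fbxo38 (genotype label Fbxo38 cKO, for conditional knockout). FBXO38 belongs to the F-box family, whose members pick the targets of ubiquitin ligases. All 6 cultures, WT 1 to 3 and cKO 1 to 3, were kept with IL-13 and IL-4, cytokines of alternative activation, each at 20 ng/mL and for 24 h, and there is no unstimulated group. The sources used here do not name the Cre driver, the ages, or which animals were littermates of each other.

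Values are TPM, transcripts per 1000000 transcripts of a library, a unit that is scaled to transcript length and keeps no read depth, so no counting interval can be given. The table was selected on the outcome, since each listed transcript has an absolute log2 fold change of at least 1.00 between the genotypes in the authors' comparison. A listed transcript therefore differs between the groups by selection, and the tests below run over transcripts already chosen in this way. The listed transcripts held between 2.01% and 6.57% of a library, with WT 2 the highest. WT 2 was also the highest library for 37.6% of all listed transcripts. For Eif2s3y, a Y-linked gene, WT 1 and WT 2 had 0 TPM and the other 4 libraries 35.6 to 51.2 TPM, so the groups differ in Y-linked RNA. All 5 tested sex-linked transcripts are of the Y-linked genes Eif2s3y, Ddx3y and Uty. They had a higher mean in cKO, and none was called. The X-linked gene Xist, with no tested transcript, went the other way. It summed to 3.83, 43.8 and 0 TPM in WT 1 to 3 and to 0 TPM in each cKO library. WT 1 and WT 2 thus had the pattern of female animals, and WT 3 and all cKO libraries that of males. Sex, which the labels do not give, is therefore partly confounded with genotype. The 7 listed transcripts of Fbxo38 summed to 8.79 to 12.4 TPM in WT, against 5.90 to 9.08 TPM in cKO, ranges that overlapped. This sum joins transcripts of opposite direction. In cKO 1 to 3, assembled transcript MSTRG.8674.6 came to 0, 0.40 and 0 TPM, below its WT values of 1.76, 3.22 and 3.34 TPM. Its log2 change was -1.72, with an adjusted p of 0.134 by limma. MSTRG.8674.5 was likewise lower in cKO (log2 change -0.90), whereas MSTRG.8674.1 had a higher mean there (1.05), each with a limma adjusted p of 0.209.

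The label of resident macrophage identity was examined with 22 further genes of large peritoneal macrophages. Of these, 13 had a listed transcript and 2, Thbs1 and Serpinb2, had one that reached the test described below. Timd4, Vsig4, Alox15, Cxcl13, Fcna, F5, F10, Cd93 and Cebpb have none listed and were not analysed here. Icam2, a surface marker of these cells, was above 0 only in WT 2, at 0.81 TPM, and in cKO 1, at 0.88 TPM. Of 18 general macrophage genes 7 were listed, led by the adaptor gene Tyrobp with 175 to 365 TPM in WT libraries and 224 to 896 TPM in cKO libraries. Tyrobp, Spi1 and Axl of this list were well above 0 in every library. Csf1r summed to 0.08, 3.64 and 6.49 TPM in WT, against 0, 0.38 and 0 TPM in cKO. Itgam summed to 0.28 to 1.38 TPM in WT and 0.09 to 0.20 TPM in cKO. Aif1 was at 0 in every cKO library, and Cx3cr1 at or under 0.08 TPM throughout. The selection can leave out an abundant gene that does not differ, so the level of a gene not listed is unknown. These markers therefore do not show how many large resident macrophages a library held.

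A short sequence at the start of Rarb is shown because it is the site through which retinoic acid is known to act on this gene. It lies on the minus strand of chromosome 14 at chr14:16575506-16575535 in GRCm38.p6, and the capitals mark a direct repeat of the half-site GTTCA, the retinoic acid response element of this gene.

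Rarb start region: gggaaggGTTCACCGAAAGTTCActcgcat

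The repeat was searched on both strands as GTTCA, 6 bases of any kind and GTTCA again. It ends 37 bases before the start of the gene as RefSeq gives it. By GENCODE M21 the listed transcript ENSMUST00000063750 starts 15 bases upstream of the repeat, so that the repeat falls in its first exon, before the coding part. Of 32851 windows of 300 bases around RefSeq starts, 25 held this pattern, or 0.0761%, and RefSeq windows were matched for 1 of the 3 genes. A match is a description of letters and was not set against binding data.

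Adgre1 had 4 listed transcripts of 5 in the annotation. The long ENSMUST00000004850 and the shorter ENSMUST00000233376, ENSMUST00000232808 and ENSMUST00000233840 were listed, and the long ENSMUST00000086763 was not analysed here. The 2793 coding bases of ENSMUST00000004850 are those of ENSMUST00000086763. The 2 long forms differ by an intron of 87 bases after the coding end and in how far their ends reach, so the listed form and the form not analysed encode the same F4/80 protein. The 3 shorter forms are incomplete in the annotation, with an open coding end, and hold no base that is absent from other Adgre1 transcripts. Each has 1 splice junction of its own, which skips exons of the long form, and these junctions are shown because no other base tells the forms apart. The first 15 bases are the upstream exon and the capitals are the 15 bases of the downstream exon, on the plus strand of chromosome 17.

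ENSMUST00000233376: gacaaacacttggtgATGAAGATGAATGTG
ENSMUST00000232808: tgctcctcttctgggGTGTGAATGAGTGTC
ENSMUST00000233840: gctccatttgtgaagATATCGATGAGTGTG

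ENSMUST00000233376 joins exon 2 of the long form to exon 6 and omits 423 bases. ENSMUST00000232808 joins exon 1 to exon 3 and omits 63 bases, and ENSMUST00000233840 joins exon 5 to exon 8 and omits 297 bases. The GENCODE span of Adgre1 is chr17:57358691-57483527 and that of Rarb is chr14:16430839-16819156, both in GRCm38, and Gata6 lies on chromosome 18. The build of the deposited table is not given in the sources used here, and transcripts were matched to the annotation by identifier.

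The main transcript of each gene was lower in every cKO library than in any WT library. The WT mean was 5.38 times the cKO mean for Gata6, 3.18 times for Rarb and 2.81 times for Adgre1. The Gata6 transcript was called lower in the authors' deposited table, and none of the 3 passed the test made here across all tested transcripts. Fewer resident macrophages and less RNA of these genes per cell cannot be told apart in bulk RNA. Most listed markers of cells of the cavity wall were also lower in cKO, as given below. The part of such cells in the differences of the 3 genes was not tested.

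Gata6 ENSMUST00000047762, the full-length coding transcript, measured 2.57, 9.27 and 5.10 TPM in WT libraries 1 to 3, against 0.89, 1.74 and 0.52 TPM in the cKO libraries 1 to 3. The groups did not overlap, with WT 2 highest and WT 1 the lowest WT library, still above cKO 2. The mean was 5.65 ± 3.38 TPM for WT, against 1.05 ± 0.63 TPM for cKO (SD, n = 3 each). The log2 change was -1.61 ± 0.51 (SE) on the log2(TPM + 1) scale, which understates the change of low transcripts, with an adjusted p of 0.209 by limma. The exact two-sided permutation p was 0.1, the smallest that 3 against 3 libraries can give. The log2 fold change of the authors' deposited table was -2.08, with an adjusted p of 0.0267.

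Rarb ENSMUST00000063750, the long coding transcript whose first exon holds the repeat shown above, measured 1.04, 1.97 and 1.73 TPM in WT, against 0.50, 0.50 and 0.49 TPM in cKO. The 3 cKO libraries were nearly equal, and all lay below WT 1. It passed the filter on low values only through its WT libraries, so it had to differ in order to be tested. The mean was 1.58 ± 0.48 TPM for WT, against 0.497 ± 0.0058 TPM for cKO (SD, n = 3 each). The log2 change was -0.77 ± 0.32 (SE), with an adjusted p of 0.209 by limma and an exact permutation p of 0.1. The authors' deposited table has -1.27 for its log2 fold change, with an adjusted p of 0.513.

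Adgre1 ENSMUST00000004850, a full-length F4/80 transcript, measured 4.18, 3.63 and 5.58 TPM in WT, against 1.05, 2.35 and 1.37 TPM in cKO. Here WT 3 was the highest library and WT 2 the lowest of the WT libraries, which still lay above cKO 2. The mean was 4.46 ± 1.01 TPM for WT, against 1.59 ± 0.68 TPM for cKO (SD, n = 3 each). The log2 change was -1.09 ± 0.41 (SE), with an adjusted p of 0.209 by limma and an exact permutation p of 0.1. For this transcript the authors' deposited table has a log2 fold change of -1.19, at an adjusted p of 0.268. Since ENSMUST00000086763, with the same coding bases, was not analysed here, these values are not the total of F4/80 mRNA.

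**Figure D1:**
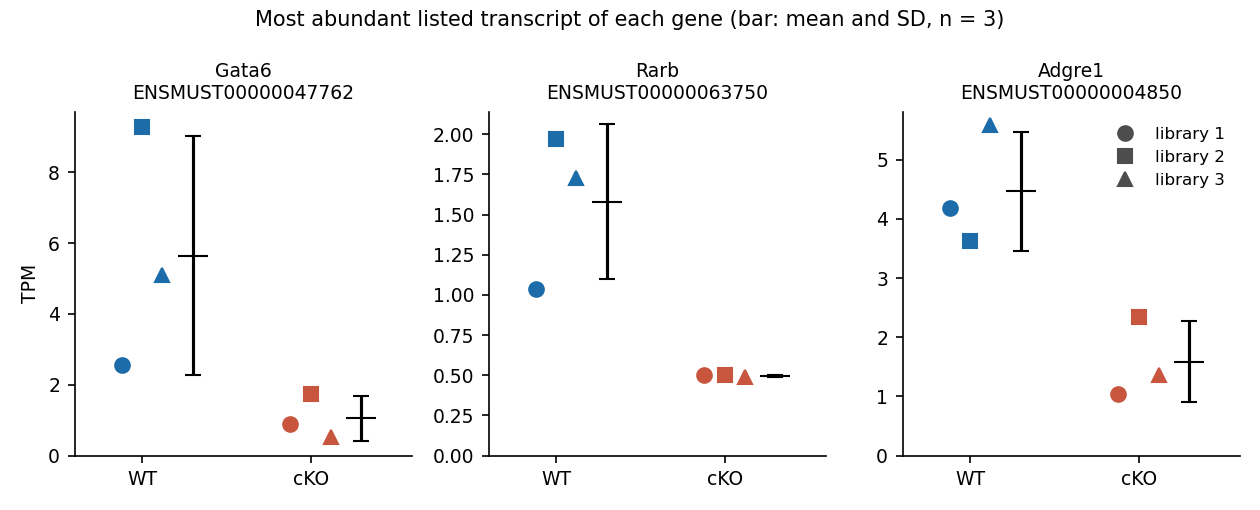
TPM (vertical axis, linear, from 0) of the most abundant listed transcript of Gata6, Rarb and Adgre1 in 3 WT and 3 cKO libraries, with 1 point per library, the point shape giving the library number, and bars for mean and SD. WT 2 is the highest point for Gata6, at 9.27 TPM, and for Rarb, at 1.97 TPM, but the lowest WT point for Adgre1, at 3.63 TPM.

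The limma test covered the 2050 transcripts with at least 1 TPM in at least 3 libraries. Of these, 0 were called lower in cKO (0%) and 0 higher at an adjusted p of 0.05. At an unadjusted p of 0.05, limma gave 347 lower (16.9%) and 125 higher (6.1%), and the mean was lower in cKO for 50.6% and higher for 49.4%. The unadjusted p was 0.0143 for Gata6, 0.0304 for Adgre1 ENSMUST00000004850 and 0.0437 for Rarb, places 118, 247 and 409 in the order of the 2050. The authors' deposited table called 57 of 33539 transcripts lower at an adjusted p of 0.05 (0.17%) and 33 higher (0.0984%), and 1 of the 13 transcripts described here, that of Gata6, was among those lower. WT lay wholly above cKO in 5 of the 13, against 8.11% of all listed transcripts, and wholly below it in 0 of the 13, against 2.39%. Among the 4 of the 13 that were tested it did so in 3, against 22.9% of the 2050, of which 14.1% had cKO wholly above WT. These counts are descriptions, since the genes were chosen with results of these data known and the filter lets a transcript pass through its higher group.

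The WT libraries ordered differently for Adgre1 than for the other genes. The ratio of the Gata6 to the Adgre1 transcript was 0.615, 2.55 and 0.914 in WT, against 0.848, 0.740 and 0.380 in cKO. WT 2 stood apart in this ratio, WT 3 was just above the cKO range and WT 1 lay within it. The ratio of the Rarb to the Adgre1 transcript was between 0.249 and 0.543 in WT and between 0.213 and 0.476 in cKO, with overlap. In terms of TPM, Gata6 was above Rarb in every library, with a ratio from 1.06 in cKO 3 to 4.71 in WT 2. Without WT 2 the log2 change was -1.23 for Gata6, -0.66 for Rarb and -1.20 for Adgre1, each with an adjusted p of 0.317 or 0.318 by limma. Among only the 4 libraries that hold Y-linked transcripts, WT 3 against the 3 cKO libraries, it was -1.62, -0.87 and -1.38, each with an adjusted p of 0.322 by limma, where the lone WT library is assumed to vary like the others.

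The remaining 10 transcripts were mostly near 0. Adgre1 ENSMUST00000233376 had 7.89 TPM in WT 2 and 0 in the other WT libraries, against 0, 1.30 and 1.45 TPM in cKO. It supplied 62.1% of the listed Adgre1 TPM of WT 2, where the long form supplied 28.6%. The groups overlapped, the log2 change was -0.22 ± 0.86 (SE) with an adjusted p of 0.811 by limma, and without WT 2 it was 0.83, in the other direction. It was 0.20 without cKO 1, so its direction rested on either of these libraries.

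Adgre1 ENSMUST00000232808 had 0.79, 1.19 and 4.62 TPM in WT, against 0, 0 and 0.72 TPM in cKO. WT 1 was thus only just above cKO 3, and WT 3 stood out. ENSMUST00000233840 did not exceed 0.51 TPM in any library and was on average higher in cKO. The 3 short forms were highest in different libraries, WT 2, WT 3 and cKO 2.

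Summed over the listed transcripts, Adgre1 had 5.19, 12.7 and 10.2 TPM in WT, against 1.12, 4.16 and 3.82 TPM in cKO. WT 2 was the highest library in this sum and the lowest WT library for the long form. The summed log2 change was -1.39 ± 0.57 (SE), with an adjusted p of 0.208 by limma.

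Of Gata6, 5 of 6 annotated transcripts were listed. ENSMUST00000234512, a short form with an open coding end, had 0.28, 0.74 and 0.65 TPM in WT, and all 3 cKO libraries were listed at 0. ENSMUST00000235081, also short, had 0.12 TPM in WT 2, 0.38 TPM in WT 3 and 0 elsewhere. Both were too low for the test, and neither was above 0 in any cKO library. Of the 2 retained-intron forms, ENSMUST00000231831 stayed at or under 0.08 TPM, and ENSMUST00000234971 was at 0.48 TPM in cKO 3 alone. The latter made up 47.5% of the listed Gata6 TPM of cKO 3, in which the sum was 1.01 TPM. The listed Gata6 transcripts summed to 2.85, 10.2 and 6.16 TPM in WT, against 0.90, 1.74 and 1.01 TPM in cKO, a log2 change of -1.63 ± 0.51 (SE) with an adjusted p of 0.208 by limma.

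Of Rarb, 3 of 7 annotated transcripts and 1 assembled transcript were listed. The assembled MSTRG.5322.1, whose structure is not given in the table, had 0.68 TPM in WT 1, 1.30 TPM in WT 2 and 0 in the other 4 libraries. It made up 39.5% and 39.2% of the listed Rarb TPM of WT 1 and WT 2. ENSMUST00000225921, a coding form whose annotated start lies upstream of that of ENSMUST00000063750, was at 0.07 TPM in WT 3 alone. The retained-intron form ENSMUST00000225356 had 0.05 TPM in WT 2, 0.10 TPM in cKO 3 and 0 elsewhere. The Rarb sums were 1.72, 3.32 and 1.80 TPM in WT, against 0.50, 0.50 and 0.59 TPM in cKO, without overlap. The summed log2 change, which counts MSTRG.5322.1 in, was -1.07 ± 0.35 (SE), with an adjusted p of 0.208 by limma. Like the main transcript, this sum was at 1 TPM or more only in WT.

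**Figure D2:**
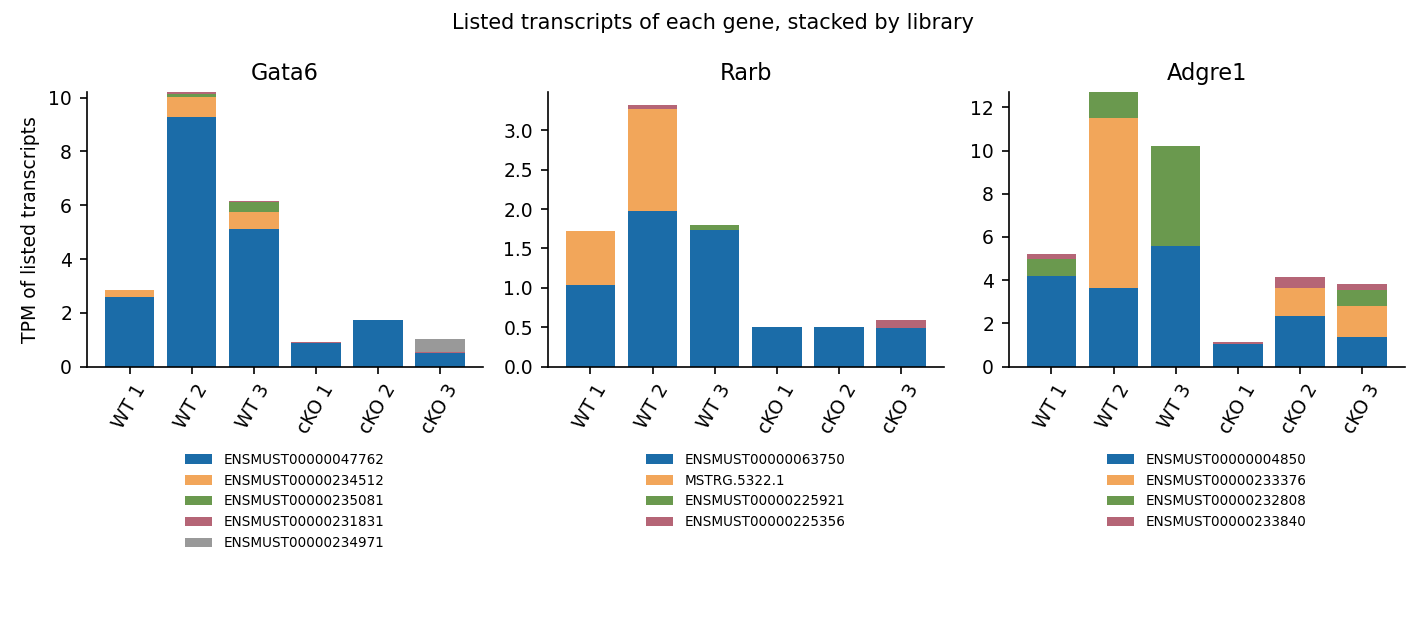
TPM of the listed transcripts of each gene, stacked in 1 bar per library (vertical axis in TPM, from 0, with a scale of its own in each panel). The main transcript fills 51.5% of the Gata6 bar of cKO 3 and at least 82.8% of the others, and ENSMUST00000233376 fills 62.1% of the Adgre1 bar of WT 2.

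Most markers of mesothelium and fibroblasts, cells of the cavity wall, also had lower means in cKO, without a call by limma. Over all listed transcripts, the authors' deposited table has 60.6% lower in cKO. It has 19 of 20 listed mesothelial (95.0%) and 23 of 25 listed fibroblast transcripts (92.0%) lower. The exceptions are the transcript of Efemp1, at 0.05 TPM in cKO 1 and 0 elsewhere, and 2 of the 4 transcripts of Postn, which summed to 0.26, 1.13 and 0 TPM in WT, against 0.90, 0.71 and 0.90 TPM in cKO. The summed TPM of the listed mesothelial markers, 10 of 11 genes, was 25.9, 101 and 43.2 in WT 1 to 3 and 7.37, 20.5 and 23.8 in cKO 1 to 3. WT lay above cKO, with WT 1 close to cKO 3. The sum for the listed fibroblast markers, 8 of 9 genes, was 37.4, 410 and 109 TPM in WT, against 13.6, 45.2 and 38.6 TPM in cKO, with WT 1 inside the cKO range. All 6 tested mesothelial and 5 tested fibroblast transcripts had a lower mean in cKO, with median log2 changes of -1.17 and -1.73 against -0.39 over all 2050. None was called by limma, and the authors' deposited table called 1 untested Col1a2 transcript lower. Wt1, a transcription factor gene of the mesothelium, summed to 5.58, 24.4 and 8.91 TPM in WT, against 1.87, 3.88 and 3.30 TPM in cKO. Gpm6a and Msln, further mesothelial markers, were at or near 0.

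Per 100 TPM of summed mesothelial markers, the Gata6 transcript came to 9.93, 9.15 and 11.8 TPM in WT, against 12.1, 8.51 and 2.19 TPM in cKO. The groups overlapped in this ratio, with cKO 1 above the WT range and cKO 2 and cKO 3 under it. For Adgre1 it was 16.2, 3.58 and 12.9 TPM in WT, against 14.3, 11.5 and 5.77 TPM in cKO. For Rarb it was 4.02, 1.94 and 4.01 TPM in WT, against 6.78, 2.45 and 2.06 TPM in cKO. Both overlapped, with WT 2 the lowest library. Per 100 TPM of summed fibroblast markers, Gata6 came to 6.87, 2.26 and 4.68 TPM in WT, against 6.54, 3.85 and 1.35 TPM in cKO. The groups overlapped, with WT 2 below cKO 1 and cKO 2. Rarb and Adgre1 overlapped in that ratio as well, with WT 2 the lowest library. Both kinds of ratio were chosen after the values were seen, and the part of lining cells in the 3 genes' differences was not tested. The listed markers of B cells, T and NK cells, mast cells, neutrophils, eosinophils, dendritic cells and endothelium stayed low, with a highest sum of 3.28 TPM, for T and NK cells in WT 3.

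**Figure D3:**
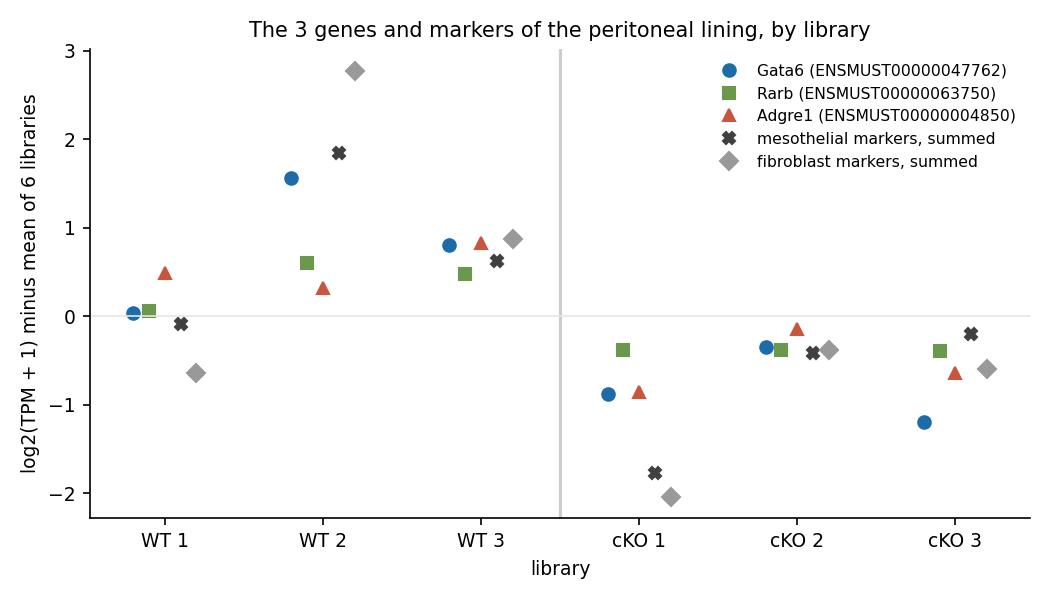
Level in each library of the main Gata6, Rarb and Adgre1 transcripts and of the summed mesothelial and fibroblast markers, as log2(TPM + 1) minus the mean of the 6 libraries, with 1 point per library. WT 2 is the highest library for Gata6, Rarb and both marker sums but not for Adgre1.

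No other gene of the large peritoneal macrophage was called. Thbs1, which encodes a matricellular protein, was at 2.87, 11.5 and 6.57 TPM in WT, against 0.65, 2.69 and 1.61 TPM in cKO for its tested transcript, a log2 change of -1.51 ± 0.57 (SE) with an adjusted p of 0.209 by limma. WT 2 was again highest, and the groups did not overlap, though WT 1 was close to cKO 2. Serpinb2, a serine protease inhibitor gene, was at 3.09, 1.94 and 11.4 TPM in WT, against 2.00, 1.92 and 1.73 TPM in cKO, with overlap. Padi4, a peptidylarginine deiminase gene, had a transcript at 0.87, 1.54 and 1.41 TPM in WT, against 0.47, 0.22 and 0.03 TPM in cKO, under the filter. Over the 13 listed genes of this list, the authors' deposited table has 22 of 31 transcripts lower in cKO, or 71.0%, against 60.6% of all listed transcripts, and 0 were called there or by limma.

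The other GATA genes and the cofactors of GATA factors were low. Gata5 was at 0.73, 4.59 and 1.99 TPM in WT, against 0.24, 0.60 and 0.75 TPM in cKO, and Zfpm1, which encodes the GATA cofactor FOG1, had a transcript at 0.80, 7.20 and 1.94 TPM in WT, against 0.43, 0.72 and 0.82 TPM in cKO. WT 2 was highest for both transcripts, and in both WT 1 lay inside the cKO range. All listed Zfpm1 transcripts summed to 1.32, 7.20 and 1.94 TPM in WT, against 0.98, 0.79 and 1.08 TPM in cKO, without overlap. The authors' deposited table has 14 of 17 transcripts of this list lower in cKO, or 82.4%, against 60.6% of all listed transcripts. The listed transcripts of Gata4 summed to 0.33, 1.06 and 0.62 TPM in WT, against 0.01, 0.08 and 0.19 TPM in cKO. No transcript of the 6 listed genes reached the test.

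Genes of retinoid supply and signalling lay in both directions, with most transcripts lower in cKO. The authors' deposited table has 49 of 65 transcripts of this list lower, or 75.4%, against 60.6% of all listed transcripts. Of 31 genes 21 were listed, 3 had a tested transcript, and 0 were called by limma. Tgm2, the transglutaminase gene induced by retinoic acid, was at 54.9, 193 and 79.9 TPM in WT, against 28.6, 46.0 and 44.3 TPM in cKO, a log2 change of -1.27 ± 0.67 (SE) with an adjusted p of 0.234 by limma. WT lay above cKO, with WT 2 highest. Dhrs3, which encodes a reductase that turns retinal back into retinol, was in the other direction, at 4.50, 1.26 and 0.97 TPM in WT, against 7.66, 8.48 and 6.87 TPM in cKO, a log2 change of 1.57 ± 0.52 (SE) with an adjusted p of 0.209 by limma. Here all cKO libraries lay above WT, and WT 2 was not the extreme. Rarg and Rara, the genes of the other RAR receptors, summed to at most 2.67 and 1.65 TPM in a library, with WT above cKO in both.

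Adhesion receptors other than Adgre1 were at low levels. Of their 69 listed transcripts the authors' deposited table has 49 lower in cKO, or 71.0%, against 60.6% of all listed transcripts. None of the transcripts of the 20 listed genes out of 29 reached the test, and Adgra2, Adgrd1 and Adgra3 had the highest means. The Adgrd1 transcript was at 0.20, 3.63 and 0.55 TPM in WT, against 0.14, 0.57 and 0.36 TPM in cKO, so that WT 2 alone stood apart. Adgre4, the closest listed relative by name, was at 0.06 TPM or less in every library. General macrophage genes did not share 1 direction. Axl, a receptor kinase gene for clearance of dead cells, was at 5.56, 14.9 and 9.22 TPM in WT, against 2.27, 5.00 and 3.78 TPM in cKO, a log2 change of -1.17 ± 0.54 (SE) with an adjusted p of 0.209 by limma. Spi1, which encodes the macrophage transcription factor PU.1, was at 8.84, 6.89 and 13.02 TPM in WT, against 12.6, 20.5 and 15.7 TPM in cKO for its tested transcript, a log2 change of 0.72 ± 0.53 (SE) with an adjusted p of 0.328 by limma.

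Transcripts with a pattern most like that of the 3 genes over the 6 libraries were named by Pearson r of log2(TPM + 1) among 891 transcripts. All were selected for a difference between the genotypes, which raises r, and no test is attached. For Gata6 they were those of Asph (r = 0.992), Ecpas (r = 0.981), Mir22hg (r = 0.977) and Arfip2 (r = 0.976). The Asph transcript was at 2.02, 4.28 and 3.22 TPM in WT, against 1.04, 1.32 and 0.91 TPM in cKO. For Rarb they were Il1r1 (r = 0.995), Evl (r = 0.985), Asph (r = 0.985) and ENSMUST00000218260 of Arg1 (r = 0.984), the arginase gene of alternative activation. This Arg1 transcript was at 1.38 to 10.2 TPM, against 655 to 2633 TPM for Arg1 ENSMUST00000020161. For Adgre1 they were Zfp981 (r = 0.967), Lrrc40 (r = 0.963), Nsmaf (r = 0.955) and Pirb (r = 0.955), which encodes an inhibitory receptor of myeloid cells. The Pirb transcript was at 3.30, 2.20 and 5.34 TPM in WT, against 0.29, 2.03 and 0 TPM in cKO, with WT 3 highest as for Adgre1. Among the 3 genes, r was 0.954 between Gata6 and Rarb, 0.802 between Gata6 and Adgre1 and 0.831 between Rarb and Adgre1.

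The size of each difference depended on how libraries were scaled. With libraries rescaled by median ratios the median over all tested transcripts moved from -0.39 to 0.33, and the log2 changes became -0.88 for Gata6, -0.27 for Rarb and -0.40 for Adgre1. The ratios were taken from listed transcripts above 0 in every library, which had been selected to differ between the genotypes. This scaling can therefore remove part of the genotype difference itself. Relative to that median, Gata6 was at -1.22 as deposited and -1.21 after rescaling. Adgre1 was at -0.71 and -0.73, and Rarb at -0.38 and -0.59. Each tested transcript had been selected for a difference, so this median is no baseline of unchanged transcripts. Values relative to it do not show a difference that is free of scaling. The direction was lower in cKO for all 3 under each setting that gave a value. These transcripts were selected for a difference in the same 6 libraries, so a constant direction is no separate evidence.

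**Figure D4:**
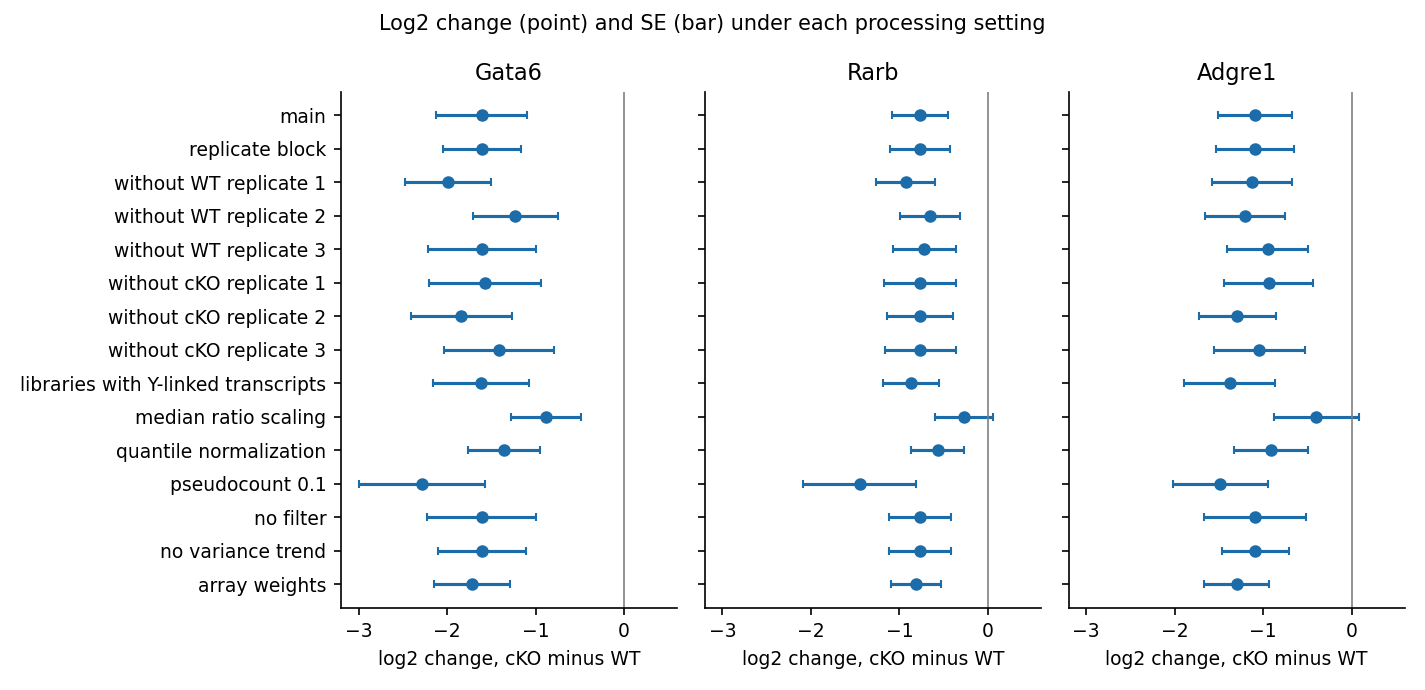
Log2 change of cKO against WT (horizontal axis) with its SE for the main transcripts of Gata6, Rarb and Adgre1 under each processing setting that gave a value (vertical axis). Each point lies below 0, nearest to it after median ratio scaling, at -0.88, -0.27 and -0.40.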

How the data were processed

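Per the labels' protocols, poly(A) RNA was sequenced from stranded libraries, fastp trimmed the reads, HISAT2 aligned them and StringTie assembled transcripts. The submitters' processing notes also name RSEM and DESeq2, with neither role nor version. The build of the genome is not given in the sources used here. The authors deposited TPM per transcript and library, a ratio (fold change of cKO over WT), the log2 of it, and p-values raw and adjusted. Depth per library is unknown, and 0 columns of per-sample values were unmatched. A second table of transcripts picked by the authors was not used.

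Transcripts with at least 1 TPM in at least 3 of 6 libraries were tested as log2(TPM + 1) with limma 3.58.1 in R 4.3.3 (variance trend, group as the only term, two-sided, Benjamini-Hochberg over 2050 transcripts). Summed TPM of a gene's listed transcripts was tested in the same way, with 3 further rows that entered no count. Single values were also tested by exact permutation (scipy 1.17.1). The fit was tested on simulated data. Exons came from GENCODE M21, the Rarb start region from RefSeq. The genes, lists, tests and alternatives were chosen with earlier results of these data known. Named were all transcripts of the 3 genes, the genes of each list with the smallest p or highest mean, and the transcripts most correlated with each gene. Icam2, Gata4, Csf1r, Itgam, Aif1, Cx3cr1, Rara, Rarg, Msln, Gpm6a, Efemp1, Postn, Adgre4, Ccr2 and Cd226 were named after their values were seen. So were the single Fbxo38 transcripts. Some items are not reported here. Alternatives were the replicate block, leaving out libraries, libraries with Y-linked transcripts, 2 scalings, a pseudocount of 0.1, other filters and other variance models. Python 3.11.15, pandas 2.3.3, numpy 2.4.6 and matplotlib 3.10.9 served for tables and figures.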

Additional observations from a re-analysis of the deposited data

How the results depend on the processing

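The main transcripts of Gata6, Rarb and Adgre1 were lower in cKO and not called under all 14 alternatives that gave a value, with log2 changes of -2.28 to -0.88, -1.45 to -0.27 and -1.48 to -0.40. Leaving out each library in turn gave -1.99 to -1.23, -0.93 to -0.66 and -1.29 to -0.94. A mean of at least 5 TPM left none of them to test singly. For Adgre1 ENSMUST00000233376 the direction reversed in the libraries with Y-linked transcripts (0.83), with median ratio scaling (0.29), with a pseudocount of 0.1 (0.48), with array weights (0.23), and on leaving out a library in turn (-0.74 to 0.83). It reversed without WT 2 (0.83) and without cKO 1 (0.20). The count of called transcripts, 0, was 3 with quantile normalization, 3 with array weights and 0 to 4 on leaving out each library, 4 of them without cKO 2. They were Ndufb5, Gm42959 and Tkt under each of the former, and without cKO 2 they included Vps11, Manf and Cipc, named after their values were seen. None of those called is of the 3 genes or of a list. Same-numbered WT and cKO libraries deviated from their group means with r of 0.135, -0.137 and -0.109, so the numbers were not taken to pair them. The labels speak of 3 pairs of littermates without saying which, and no littermate pairing was fitted. With the replicate block, 0 transcripts were called and Gata6 was at -1.61 with a limma adjusted p of 0.202. TPM keeps no depth, so how many reads stand behind values near 1 TPM is unknown.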

Other observations

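Genes of the small peritoneal macrophage and of monocytes, the cells that stand beside the large resident cell in the cavity, had 16 of 19 genes listed, and 13 transcripts of 4 genes were tested. None was called by limma. Of these, 11 had a lower mean in cKO, with a median log2 change of -1.08 over the 13 against -0.39 over all tested transcripts, and 10 of the 13 are transcripts of Fn1, the fibronectin gene. The listed Fn1 transcripts summed to 89.1, 816 and 262 TPM in WT, against 81.6, 129 and 92.8 TPM in cKO, with overlap and WT 2 highest. Without WT 2 the median over the 13 was -0.38, against 0.12 over all tested transcripts. The tested transcript of Mgl2, a macrophage lectin gene, had 0, 1.79 and 2.80 TPM in WT, against 0, 1.17 and 0 TPM in cKO, also with overlap. The other 2 tested transcripts, of Lyz1 and H2-Eb1, had a higher mean in cKO. Lyz1, a lysozyme gene, was at 72.0, 38.2 and 63.7 TPM in WT, against 312, 224 and 283 TPM in cKO, a log2 change of 2.25 ± 0.57 (SE) with an adjusted p of 0.182 by limma. The authors' deposited table called this transcript and a second one of Lyz1 higher. The listed transcripts of Cd226, a marker of the small cells, summed to 0.05, 0 and 0 TPM in WT, against 0.62, 1.12 and 0.16 TPM in cKO, all under the filter. H2-Eb1, a class II antigen presentation gene, was at 19.1, 5.14 and 12.5 TPM in WT, against 21.4, 33.0 and 13.5 TPM in cKO, with overlap. Ccr2, the monocyte chemokine receptor gene, stayed at or under 0.47 TPM. Of the 46 listed transcripts of this list, the authors' deposited table has 27 lower in cKO, or 58.7%, against 60.6% of all listed transcripts.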
